A study of Mus musculus with 4 samples.

Results

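MicroRNA rows are the rows of the deposited expression table named after microRNA genes, such as Mir25 or Mirlet7d. They were chosen by symbol, and rows of host transcripts ending in hg were left out. This gave 1148 of 25630 rows, 4.48% of the table. Of these, 169 rows (14.7%) averaged at least 1 TPM across all 4 libraries and are described one by one or in groups. TPM is the number of reads on a row divided by its length and scaled to a fixed total per library, here 1000000. The threshold is a measured level, so the height of the described rows is a description and not a finding.

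RNA was measured in BEKO, a mouse thymic lymphoma cell line of the genotype WT, in 2 libraries of cells at high density and 2 libraries of cells at low density. Both groups share line and genotype, and no drug or other treatment is named for either. By its title, the series is about γδ T cell receptors that bind IL17RA. What the densities were in cells per volume, and how long cells were cultured, is not in the labels. They do not say either whether replicates were separate cultures, so the p-values rest on a spread that may be technical only. BEKO is 1 line, and whether it was cloned is not stated.

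The line matched its label at the level of marker genes. All 8 T lineage markers examined had a mean of at least 1 TPM. The lowest, the γδ T cell receptor constant gene Trdc, had 101.5 and 77.1 TPM at high density, against 18.1 and 16.05 TPM at low density. Erythroid markers were listed at 0 in all libraries. Of 3 myeloid markers Itgam alone was above 1 TPM, with 16.1 and 12.1 TPM at high density, against 8.27 and 6.62 TPM at low density, and Lyz2 was at 0 in all 4. Low density library 1 stood apart in both fibroblast markers, with 30.3 TPM for Col1a1 and 14.5 TPM for Col1a2, where no other library exceeded 0.300 TPM for either. The part of these markers in the results below was not tested.

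A microRNA gene is first transcribed as a long primary transcript, often together with a protein-coding or long noncoding host. The nuclear enzyme Drosha with its partner Dgcr8 cuts a hairpin out of it, Xpo5 exports the hairpin, and Dicer1 cuts it to a short mature microRNA. An Argonaute protein then holds the mature strand and uses its seed, bases 2 to 8, to find target messenger RNAs. In T cells and lymphomas, the miR-17-92 group favours growth and survival, miR-181 tunes T cell receptor sensitivity, and miR-142 is abundant in blood cells.

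The rows stand for hairpins and not for mature strands. Multiplying a row's TPM by its RefSeq hairpin length gave a whole multiple of 1 constant per library in 665 of 687 values above 0 (96.8%, within 0.01 of a whole number). The sequences below therefore name which mature microRNAs a hairpin can yield, and these libraries do not measure them. Of the described rows, 156 matched a mature sequence in RefSeq (GRCm38.p6). They carried 259 mature sequences with 242 seeds, of which 14 seeds were shared by 2 or more rows, 30 rows in all.

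Several of the best known microRNA families were present with more than 1 described row, and these are shown because their shared seed is what makes them families. Capitals mark the seed, and sequences run 5′ to 3′. The first set shares the seed of miR-25 and miR-92, which was carried by Mir25, Mir363 and Mir92-2:
mmu-miR-25-3p: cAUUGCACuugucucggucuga
mmu-miR-363-3p: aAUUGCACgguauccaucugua
mmu-miR-92a-3p: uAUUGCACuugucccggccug

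The second set shares the seed of miR-17, the founding member of the miR-17-92 cluster, and was carried by Mir17, Mir93 and Mir106b:
mmu-miR-17-5p: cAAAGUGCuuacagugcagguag
mmu-miR-93-5p: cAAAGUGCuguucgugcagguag
mmu-miR-106b-5p: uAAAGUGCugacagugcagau

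The let-7 family, which restrains growth and blocks Lin28, was carried by Mirlet7d, Mirlet7f-1 and Mirlet7i:
mmu-let-7d-5p: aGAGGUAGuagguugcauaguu
mmu-let-7f-5p: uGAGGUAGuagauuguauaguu
mmu-let-7i-5p: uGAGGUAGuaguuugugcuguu

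The miR-181 seed was carried by Mir181b-1 and Mir181c, the miR-130 and miR-301 seed by Mir130b and Mir301, and the miR-16 seed by Mir16-1 and Mir16-2, whose mature 5′ strand is shown as miR-16-5p:
mmu-miR-181b-5p: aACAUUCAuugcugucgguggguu
mmu-miR-181c-5p: aACAUUCAaccugucggugagu
mmu-miR-130b-3p: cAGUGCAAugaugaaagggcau
mmu-miR-301a-3p: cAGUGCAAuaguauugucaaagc
mmu-miR-16-5p: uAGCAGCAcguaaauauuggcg

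Most microRNA rows had no read. In all 4 libraries together 875 rows (76.2%) were at 0, against 7915 of the 24482 other rows (32.3%). The count above 0 was 180 and 166 rows in high density libraries 1 and 2, against 162 and 179 rows in low density libraries 1 and 2. The groups overlap, and 84.3% and 85.5% of rows were at 0 in the high density libraries, against 85.9% and 84.4% in the low density libraries. Of the 273 rows above 0 in at least 1 library, 88 were above 0 in all 4, and 84, 52 and 49 in exactly 1, 2 and 3 libraries.

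A microRNA row rests on few reads. At the median length of the described rows, 79 bases, 1 read was worth 0.991 and 1.04 TPM in the high density libraries, against 0.997 and 0.915 TPM in the low density libraries. A row at 0 could therefore have a level of up to 2.97 and 3.13 TPM at high density, against 2.99 and 2.74 TPM at low density, the limits that a count of 0 allows. Whether 1 unit of this scale is a read or a read pair was not given in the sources used here, and it is called a read below. Intervals and limits cover counting error only, since no molecular identifiers are named.

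All microRNA rows with whole reads together held 22192 and 13314 reads in the high density libraries, against 16264 and 21265 reads in the low density libraries. A single row, Mir682, held most of them, and the others held 2646 and 2121 reads at high density, against 2000 and 2215 reads at low density. Among the 163 described rows whose reads came out whole, the median was 12 reads over all 4 libraries. Of these rows, 60 had fewer than 10 reads, 108 fewer than 20 and 20 at least 100. The other 6 rows, Mir692-2, Mir3470a, Mir5098, Mir215, Mir684-1 and Mir6481, did not give whole reads.

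The threshold of 1 TPM fell in a range where neighbours cannot be told apart. Just inside it lay Mir7063 with a mean of 1.04 TPM, Mir695 with 1.04 TPM and Mir7051 with 1.01 TPM. Just outside lay Mir21a with 0.9996 TPM, Mir7022 with 0.996 TPM and Mir3066 with 0.993 TPM. Mir7051 rested on 4 reads and Mir21a on 5. In all, 53 described rows had a mean from 1 to 2 TPM and 61 from 2 to 5 TPM, and 104 rows above 0 lay under the threshold.

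**Figure D1:**
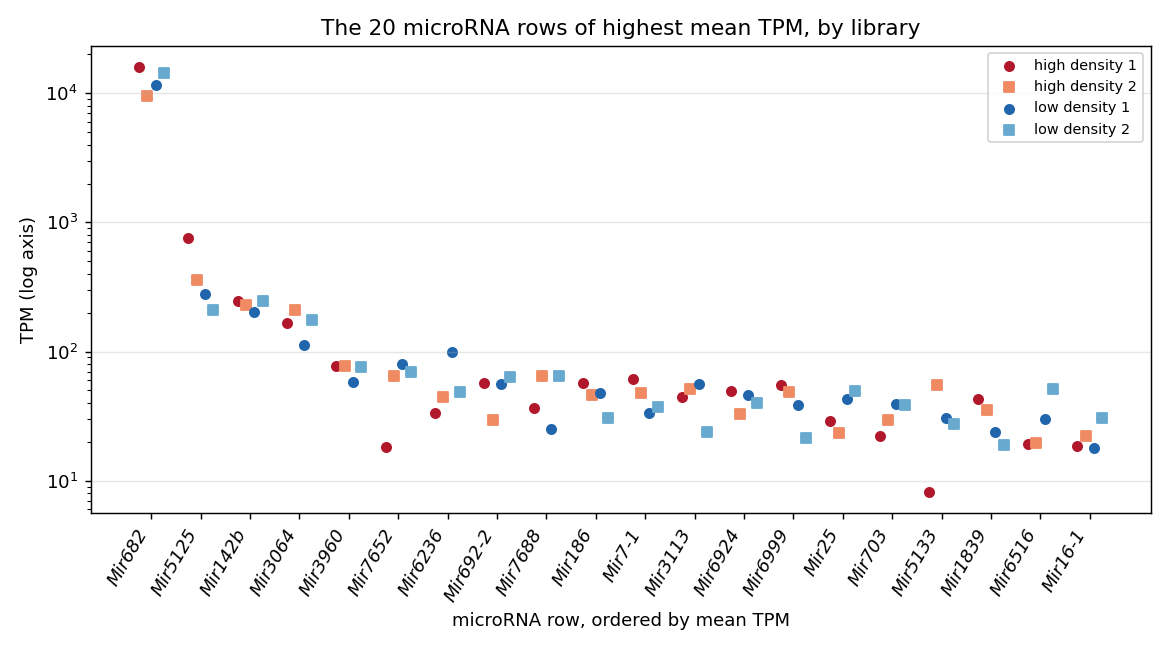
TPM on a log axis for the 20 microRNA rows of highest mean, ordered by that mean, with 1 point per library (circles replicate 1, squares replicate 2, reds high density, blues low density). Mir682 stands far above the rest in every library, at 9606 TPM or more, Mir5125 is higher in both high density libraries than in both low density libraries, and most other rows lie between 10 and 100 TPM.

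Mir682 was the highest microRNA row and among the 3 highest of all rows in each library. It had 15947 and 9606 TPM in the high density libraries, against 11698 and 14343 TPM in the low density libraries. The groups overlap, and the mean was 12777 ± 4484 TPM at high density, against 13020 ± 1870 TPM at low density (SD, n = 2 each). It made up 86.0% and 81.6% of the summed TPM of microRNA rows at high density, against 85.9% and 87.8% at low density.

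The Mir682 row is uncertain, because its hairpin is nearly the same sequence as a stretch of the messenger RNA of Rpl37a, a protein of the large ribosomal subunit. Over 96 bases the hairpin from RefSeq and the Rpl37a transcript from GENCODE differ once, C48U, counted from the first base of the hairpin, with the hairpin's base first. Both are shown for that reason, with the differing base in capitals:
Mir682 hairpin: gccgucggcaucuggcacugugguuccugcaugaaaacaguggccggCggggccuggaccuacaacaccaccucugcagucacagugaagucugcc
Rpl37a transcript: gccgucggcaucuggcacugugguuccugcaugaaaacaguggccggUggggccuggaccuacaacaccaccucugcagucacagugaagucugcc

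The annotation holds 12 genes with such a copy of the hairpin, and the hairpin itself lies in a processed pseudogene, Gm4149, that is not a row of the table. The Rpl37a row had 229.8 and 153 TPM at high density, against 245 and 292 TPM at low density, so the mean of Mir682 was 56.1 times that of Rpl37a. How reads that match several places were counted was not given in the sources used here, and reads of Rpl37a and of the hairpin cannot be told apart from the table.

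A near-identical copy in the transcript of another gene was found for 3 of 145 described hairpins searched (2.07%) and for 14 of 806 hairpins under 1 TPM (1.74%). The other described hairpins were Mir692-2, close to the ferritin light chain gene Ftl1, and Mir703, close to the translation elongation factor gene Eef1a1. Mir692-2 had 57.5 and 29.5 TPM at high density, against 56.3 and 63.3 TPM at low density. For Mir703 the values were 22.3 and 29.5 TPM at high density, against 39.0 and 38.5 TPM at low density. Both are uncertain in the same way. The remaining described rows had no hairpin in the RefSeq sequences used and were not searched, Mir7652, Mir6236, Mir1949 and Mir3470a among them. Copies outside annotated transcripts or in other microRNA genes were not searched for.

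Mir142b was the third highest row, and Mir142, the blood cell microRNA on the opposite strand, had no read. Mir142b had 246 and 229 TPM in the high density libraries, against 204 and 246 TPM in the low density libraries, and Mir142 was at 0 in all 4. The Mir142 hairpin of 64 bases lies whole within the reverse complement of the Mir142b hairpin of 115 bases, so reads from this stretch belong to one or the other only by their strand. The library kit keeps strand, per the labels, but the strand setting of the counting was not given in the sources used here, so which strand these reads came from cannot be told. The mature sequences of both are shown because they come from the same stretch:
mmu-miR-142b: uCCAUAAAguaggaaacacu
mmu-miR-142a-5p: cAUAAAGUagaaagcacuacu
mmu-miR-142a-3p: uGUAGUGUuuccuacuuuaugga

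Mir5125, in an intron of the splicing factor gene Srrm2, was the second highest row. It had 759 and 359.8 TPM in the high density libraries, against 277 and 210.4 TPM in the low density libraries, from 766 and 345 reads against 278 and 230 reads. Both high density libraries were above both low density libraries, but they differed from each other by more than 2-fold. The log2 fold change was 1.11 ± 0.32 (SE), with a limma adjusted p of 0.062, so the difference did not pass the threshold of 0.05. With replicate number as a block it did pass, though the labels link the paired libraries only by a number. It also passed with a filter at a mean of 5 TPM, where 9.34% of all rows were called. Under other pseudocounts, no filter, centring on the median or quantile normalisation it did not pass. With 1 library left out the log2 fold change ran from 0.573 to 1.65. Srrm2 itself had 393 and 316 TPM at high density, against 246 and 224 TPM at low density, with a limma adjusted p of 0.15.

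Mir3064 came next, at the edge of an exon of the RNA helicase gene Ddx5. It had 165 and 209 TPM at high density, against 112 and 176 TPM at low density, and the groups overlap. Mir186, in an intron of the splicing regulator gene Zranb2, had 57.4 and 46.4 TPM at high density, against 47.7 and 30.5 TPM at low density. Mir7-1, in an intron of Hnrnpk, which codes for an RNA-binding protein, had 61.6 and 47.3 TPM at high density, against 33.5 and 37.5 TPM at low density. Mature sequences of these well covered hairpins are given to identify them:
mmu-miR-5125: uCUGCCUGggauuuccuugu
mmu-miR-3064-5p: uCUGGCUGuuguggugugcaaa
mmu-miR-3064-3p: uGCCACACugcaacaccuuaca
mmu-miR-186-5p: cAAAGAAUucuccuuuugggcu
mmu-miR-7a-5p: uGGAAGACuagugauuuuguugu

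None of the 20 highest rows was called between the densities (0 of 20 at a limma adjusted p under 0.05, against 6.68% of all rows tested). Among them 5 rows, Mir5125, Mir3960, Mir7-1, Mir6999 and Mir1839, were higher in both high density libraries than in both low density libraries. Another 5, Mir7652, Mir6236, Mir25, Mir703 and Mir6516, were lower in both. Groups without overlap made up 54.7% of all rows tested. Mir6236 had 33.1 and 44.2 TPM at high density, against 99.85 and 48.2 TPM at low density, so low density library 1 stood alone. High density library 1 stood alone in Mir7652, with 18.2 TPM where the other high density library had 64.7 TPM, against 80.1 and 69.7 TPM at low density. It also stood alone in Mir5133, with 8.14 TPM against 54.6 TPM in the other high density library, and 30.7 and 27.2 TPM in the low density libraries.

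Most described rows lay inside other genes. Of the 169 rows, 108 (63.9%) lay in an intron, 22 (13.0%) within an exon and 7 across the edge of an exon of a gene on the same strand, while 18 lay only opposite to a gene and 14 outside genes. Among the 979 rows under 1 TPM the shares were 51.2% in introns, 10.2% within exons and 23.8% outside genes. Where a row lies in a transcript of its own host, reads of the host and of the hairpin cannot be told apart.

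The hosts of described rows were well expressed. Their median was 65.5 TPM over 123 hosts, against 38.1 TPM over 70 hosts of rows above 0 but under 1 TPM and 4.08 TPM over 424 hosts of rows at 0. At least 10 TPM was reached by 90.2% of the hosts of described rows, against 44.1% of the hosts of rows at 0. The rows were chosen by their own level, which includes any host reads over them, so this is a description with no test.

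**Figure D2:**
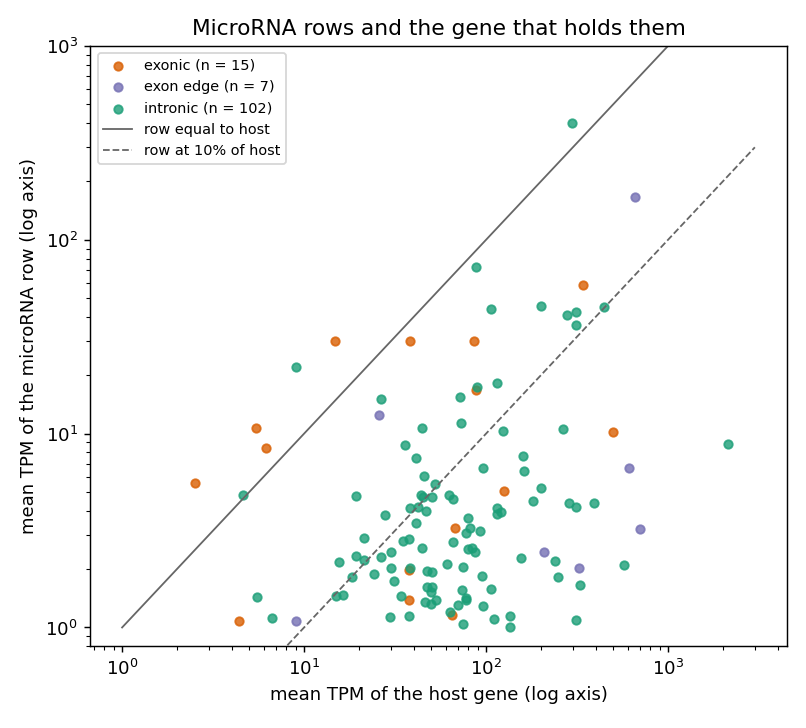
Mean TPM over the 4 libraries of each described microRNA row (y, log axis) against that of the gene that holds it on the same strand (x, log axis), for hosts of at least 1 TPM, coloured by where the row lies. The solid line marks equal levels and the dashed line a row at 10% of its host. The intronic rows have a median of 5.02% of their host and the exonic rows 19.1%, and 7 rows lie above the solid line.

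A described row in an intron had a median of 5.02% of its host's TPM (range 0.352% to 246%, 102 rows with hosts of at least 1 TPM). Rows within an exon had a median of 19.1% (range 1.80% to 220%, 15 rows), and rows on an exon edge 1.18% (range 0.461% to 48.3%, 7 rows). Both values of a pair are per length. Described rows were kept for their own level, which raises these shares. Over all microRNA rows with hosts of at least 1 TPM the median was 0% in introns (402 rows), within exons (59 rows) and on exon edges (41 rows). Mir16-1 stood highest relative to its host, at 246% of Dleu2, a long noncoding RNA that carries the miR-15a and miR-16-1 hairpins. Mir568 in Zbtb20 (220%) and Mir5133 in Glce (203%) followed. Mir93 was lowest at 0.352% of Mcm7, a subunit of the replicative helicase.

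The miR-17-92 cluster and its paralogs were the best covered of the named families. Of 15 hairpins, 9 were above 0 and 7 had a mean of at least 1 TPM. Mir25, in an intron of Mcm7, had 28.9 and 23.5 TPM in the high density libraries, against 43.1 and 49.0 TPM in the low density libraries. Mir363, from the paralogous cluster on chromosome X, had 18.8 and 14.3 TPM at high density, against 25.2 and 26.02 TPM at low density. Both rows were lower in both high density libraries than in both low density libraries. Groups were apart in this way, in either direction, in 54.7% of all rows tested. Mir92-2, the third described row with the seed of Mir25 and Mir363, was higher in both high density libraries. It had 2.58 and 4.53 TPM at high density, against 1.73 and 1.59 TPM at low density.

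Neither Mir25 nor Mir363 passed the test. With 1 library left out the log2 fold change of Mir25 ran from -0.937 to -0.652, and that of Mir363 from -0.80 to -0.426. With all 4 libraries the log2 fold change of Mir25 was -0.79 ± 0.26 (SE), with a limma adjusted p of 0.094. For Mir363 it was -0.61 ± 0.28 (SE), with a limma adjusted p of 0.21. Mcm7 had 261 and 263 TPM at high density, against 364 and 354 TPM at low density, with a limma adjusted p of 0.24. Mir17hg, the host transcript of miR-17-92, had 25.5 and 28.5 TPM at high density, against 40.3 and 57.3 TPM at low density, with a limma adjusted p of 0.10.

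The other hairpins of these clusters held few reads. In miR-17-92 itself, Mir17 had 0 and 2 reads at high density, against 2 and 2 reads at low density, and Mir18 had 2 and 1 reads, against 2 and 5. Mir19a and Mir20a had 2 and 1 reads, all in high density library 1, and Mir19b-1 and Mir92-1 were at 0. Mir92-2, from the cluster on chromosome X, had 3 and 5 reads at high density, against 2 and 2 reads at low density. Mir106b, next to Mir25 in Mcm7, had 7 and 1 reads at high density, against 3 and 7 reads at low density, and Mir93, the third hairpin there, had 0 and 1 reads against 2 and 2. None of the described rows among these was called.

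Mir16-1 was the best covered hairpin of the miR-15 and miR-16 family, which restrains the cell cycle. It had 18.5 and 22.1 TPM at high density, against 17.8 and 30.3 TPM at low density, and the groups overlap. Its host Dleu2 had 8.79 and 9.14 TPM at high density, against 8.37 and 9.77 TPM at low density. Mir16-2, in the condensin subunit gene Smc4, had 4 and 3 reads at high density, against 3 and 0 reads at low density. Mir15a and 3 other hairpins of this list of 6 had means under 1 TPM.

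Of 12 let-7 hairpins, 4 were above 0 and 3 had a mean of at least 1 TPM. Mirlet7d had 6.08 and 7.20 TPM at high density, against 11.5 and 7.02 TPM at low density, and the groups overlap. Mirlet7f-1 had 4 and 0 reads at high density, against 0 and 1 reads at low density, and Mirlet7i had 0 and 4 reads, against 2 and 1. Lin28a and Lin28b, which block the maturation of let-7, were listed at 0 in all 4 libraries.

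MicroRNAs known from T cells and blood were mostly without reads as hairpins (17 of 25), as were microRNA rows in general (875 of 1148, 76.2%). Of 25 in the table, 8 were above 0 and 2 had a mean of at least 1 TPM, Mir181b-1 and Mir181c. Mir181b-1 had 0 and 3.09 TPM at high density, against 3.94 and 9.94 TPM at low density, from 0 and 3 reads against 4 and 11 reads. All reads of Mir181c were at high density, 3 and 2, against 0 and 0 at low density. Of these 2 rows with the miR-181 seed, Mir181b-1 was higher on average at low density without passing the test (limma adjusted p of 0.088), and Mir181c was higher at high density, each on fewer than 20 reads. Mir155, Mir146 and Mir223, which mark activated lymphoid or myeloid cells, were at 0 in every library.

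MicroRNAs that define other tissues, such as muscle, liver, brain and epithelium, gave almost no reads. Of 19 in the table, 1 was above 0 in 1 library and 0 reached a mean of 1 TPM. Among all 1148 microRNA rows, 273 were above 0 in at least 1 library and 14.7% reached that mean. A row at 0 does not show that the mature microRNA is missing, since the median limit stood near 3 TPM and mature strands were not measured. Mir210, a hairpin induced by hypoxia in many cell types, had 13 and 4 reads at high density, against 0 and 3 reads at low density. Its TPM was 9.26 and 3.00 at high density, against 0 and 1.97 at low density. The log2 difference was 1.89 ± 0.57 (SE), with a limma adjusted p of 0.069. With pseudocounts of 0.1 and 5 it was 3.56 and 0.85. Mir210 was called with replicate number as a block, though the labels link the paired libraries only by a number. It was not called under either of these pseudocounts, no filter, centring on the median or quantile normalisation. With 1 library left out its log2 fold change ran from 1.11 to 2.68.

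Between the densities, 16 of the 169 described rows were called by limma at an adjusted p under 0.05 (9.47%), 10 higher and 6 lower at high density. Over all 10936 rows tested 731 were called, 6.68%, with 4.57% higher and 2.11% lower. The median log2 fold change was 0.21 over the described rows and 0.12 over all rows tested. The groups did not overlap in 76 described rows (45.0%), against 54.7% of all rows tested. Rows low in 1 group passed the filter through the other, and 11 of the 16 called rows had a mean under 1 TPM in 1 group, so their number supports nothing about microRNAs as a group.

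These calls depended on single libraries and on the scaling. Without high density library 1, 78 described rows were called (48.8%), where 34.2% of all rows were, and without high density library 2, 65 (41.4%), where 23.6% of all rows were. Leaving out low density library 1 gave 18 called rows (10.8%, against 2.75% of all rows), and leaving out low density library 2 gave 20 (12.1%, against 1.65%). Of the 16 rows, 15 were called with high density library 1 left out and 14 with high density library 2 left out, where Mir181c and, in the second fit, Mir709 fell below the filter. Leaving out a low density library kept 7 of the 16 each time. Mir181c, Mir24-2, Mir3470a, Mir6387, Mir6931, Mir6996, Mir7115 and Mir8091 were tested and not called with library 1 left out. Mir181c, Mir1949, Mir6931, Mir6942, Mir6973a, Mir709, Mir7115 and Mir8091 were tested and not called with library 2 left out, and Mir5107 fell below the filter both times. With each library centred on its median, 3 described rows were called, all 3 higher, and over all rows 160 were higher and 154 lower, against 500 higher and 231 lower as deposited. Centring moved every log2 fold change by -0.19, so the 6 falls were larger in size though not called, such as Mir1949 at -3.20 and Mir6942 at -2.60.

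Calls were spread over the depths. Among rows with under 20 reads over the 4 libraries 11 of 108 were called (10.2%), among those with 20 to 99 reads 3 of 35 (8.57%), and among those with at least 100 reads 1 of 20. The median absolute log2 fold change was 0.80, 0.78 and 0.50 in these classes, and the median SE 0.55, 0.40 and 0.29. The test shares its spread among rows of like TPM and does not use the reads behind a row.

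**Figure D3:**
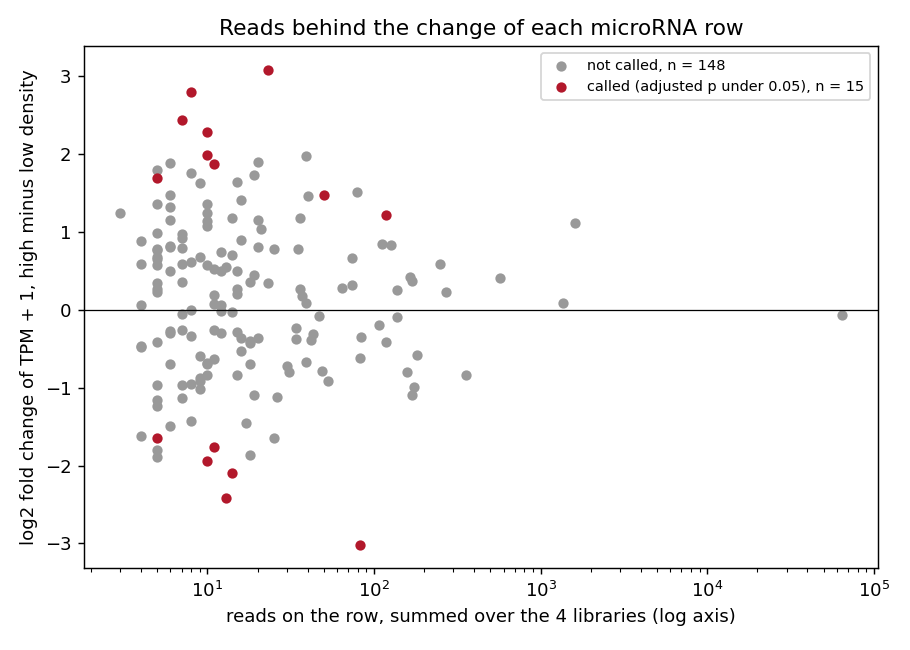
Log2 fold change of TPM + 1, high minus low density (y), against the reads on the row summed over the 4 libraries (x, log axis), for the 163 described rows with whole reads. Red points are the 15 rows called by limma at an adjusted p under 0.05 and grey points the others. Of the red points, 11 lie under 20 reads, and the point farthest right is Mir682, with a log2 fold change of -0.07.

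Counting error alone was wide for the called rows. For none of the 15 called rows with whole reads did the exact 95% Poisson intervals of both high density libraries lie apart from those of both low density libraries. Their median was 11 reads over the 4 libraries, and their range 5 to 118. Mir5125, which was not called, was the only described row whose intervals lay apart. In high density library 2, the nearer one, its interval ran from 323 to 399.9 TPM, and in low density library 1, the nearer one, from 245 to 312 TPM.

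**Figure D4:**
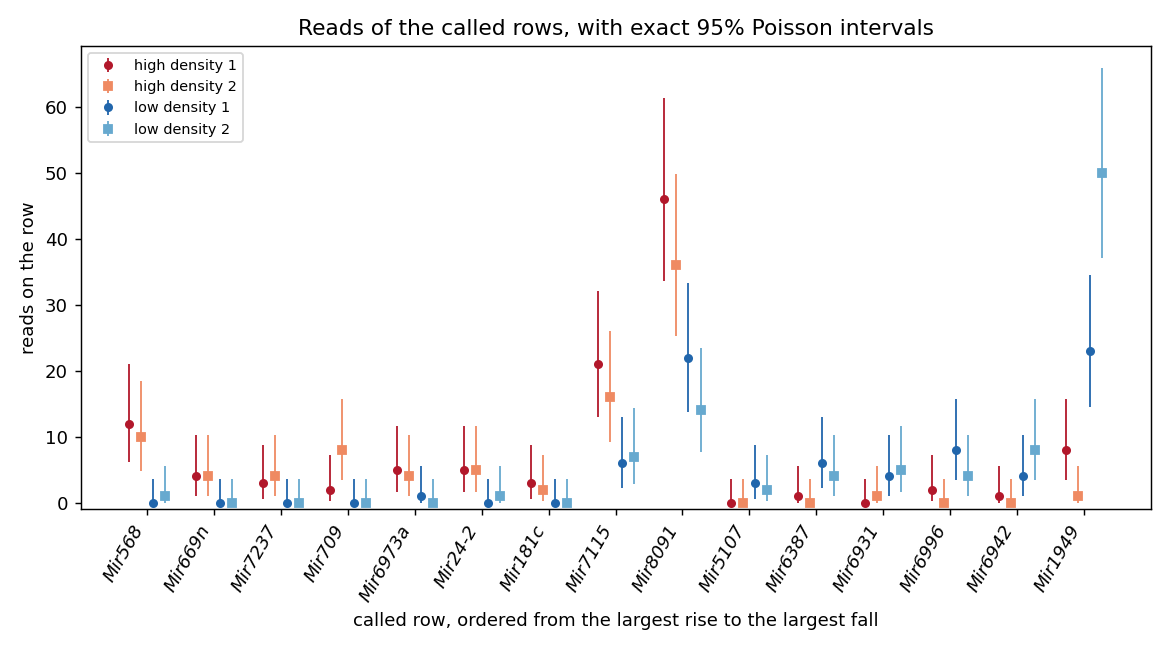
Reads on each called row with whole reads, in the 4 libraries (y), ordered from the largest rise to the largest fall at high density (x), with exact 95% Poisson intervals as bars. In every one of these 15 rows at least 1 interval of a high density library meets one of a low density library.

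Mir568, within an exon of Zbtb20, a zinc finger repressor gene, had 12 and 10 reads in the high density libraries, against 0 and 1 reads in the low density libraries. Its TPM was 11.3 and 9.93 at high density, against 0 and 0.871 at low density. The log2 fold change was 3.08 ± 0.40 (SE), with a limma adjusted p of 0.0017. Its size depends on the pseudocount, and with pseudocounts of 0.1 and 5 it was 5.10 and 1.53. Zbtb20 itself had 5.53 and 2.82 TPM at high density, against 0.922 and 0.803 TPM at low density, with a limma adjusted p of 0.060.

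Mir669n had 4 and 4 reads at high density, against 0 and 0 reads at low density, with a limma adjusted p of 0.0020. Mir7237, in an intron of Banp, which codes for a nuclear DNA-binding protein, had 3 and 4 reads at high density, against 0 and 0 reads at low density, with a limma adjusted p of 0.0049. A fitted fold change against a group at 0 depends on the pseudocount and is not given for these rows. With Mir568 they were the 3 rows of the 16 called without any 1 library and under each scaling tried. For Mir669n and Mir7237 this says little about stability, since both low density libraries are at 0 and leaving out either gives the same difference. These are their mature sequences, with those of further called rows:
mmu-miR-568: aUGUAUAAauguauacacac
mmu-miR-669n: aUUUGUGUguggaugugugu
mmu-miR-7237-5p: aUGGUAGCuugugacaggacuggc
mmu-miR-7237-3p: cAUCCUGUugagcuuaccgagc
mmu-miR-7115-5p: uCGGGGGUuguggugccgaauugu
mmu-miR-7115-3p: aCUUGGUCcccugcccccacag
mmu-miR-8091: aGGAGUGAgugguaagcuggug
mmu-miR-24-3p: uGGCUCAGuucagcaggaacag

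The best covered rises were Mir8091 and Mir7115. Mir8091, outside genes, had 46 and 36 reads at high density, against 22 and 14 reads at low density, a log2 difference of 1.22 ± 0.32 (SE; adjusted p = 0.045 in limma). Mir7115, in an intron of the arrestin gene Arrb2, had 21 and 16 reads at high density, against 6 and 7 reads at low density. Its log2 fold change was 1.47 ± 0.29 (SE; adjusted p = 0.013 in limma), and Arrb2 had 83.1 and 103 TPM at high density, against 54.9 and 45.8 TPM at low density. Neither row was called when either low density library was left out. There Mir7115 kept log2 fold changes of 1.43 and 1.52, and Mir8091 had 1.57 and 0.87, without library 1 and without library 2.

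Mir6973a lies in an intron of Ltb, the lymphotoxin beta gene of lymphocytes. It had 5 and 4 reads at high density, against 1 and 0 reads at low density, with a limma adjusted p of 0.020. Ltb rose with it, at 113 and 54.3 TPM at high density, against 4.96 and 4.42 TPM at low density, a log2 difference of 3.80 ± 0.35 (SE; adjusted p = 2.4e-04 in limma). Reads of Ltb transcripts and of the hairpin cannot be told apart.

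Mir24-2, which yields miR-24, a microRNA that restrains the cell cycle in blood cells, had 5 and 5 reads at high density, against 0 and 1 reads at low density, with a limma adjusted p of 0.022. Mir709, in an intron of Rfx1, had 2 and 8 reads at high density, against 0 and 0 reads at low density (limma adjusted p of 0.025). Mir181c, given above, had a limma adjusted p of 0.036. Mir3470a, without whole reads, had 37.1 and 8.67 TPM at high density, against 0 and 5.71 TPM at low density (limma adjusted p of 0.048).

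Mir1949 was the largest fall on the log2(TPM + 1) scale, and with a pseudocount of 0.1 the other 5 falls were larger. It had 8 and 1 reads in the high density libraries, against 23 and 50 reads in the low density libraries, a log2 difference of -3.01 ± 0.58 (SE; adjusted p = 0.011 in limma). Libraries differed within both groups, and without low density library 2 the row was not called. Mir6942, in an intron of the zinc finger gene Zkscan3, had 1 and 0 reads at high density, against 4 and 8 reads at low density (limma adjusted p of 0.012). Mir6931, in an intron of Dcakd, had 0 and 1 reads at high density, against 4 and 5 reads at low density (limma adjusted p of 0.025).

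Mir6996, in an intron of Notch1, the receptor that drives thymocyte fate, had 2 and 0 reads at high density, against 8 and 4 reads at low density (limma adjusted p of 0.048). Mir5107, at an exon edge of Cd74, the invariant chain gene, had 0 and 0 reads at high density, against 3 and 2 reads at low density (limma adjusted p of 0.043). Cd74 had 5.09 and 5.36 TPM at high density, against 13.7 and 11.8 TPM at low density, with a limma adjusted p of 0.0501. Mir6387, in an intron of the pseudokinase gene Trib2, had 1 and 0 reads at high density, against 6 and 4 reads at low density (limma adjusted p of 0.036).

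The fitted signs of row and host were not always the same, though the fall of Mir6387 rests on the few reads given above. Its counting intervals overlap between the groups, so it does not show that row and host diverge. Trib2 rose at high density, with 69.4 and 65.0 TPM, against 34.9 and 32.0 TPM at low density (log2 fold change 0.99 ± 0.25 SE, limma adjusted p of 0.037), while Mir6387 within it fell. Of the 16 called rows 11 had a host that was tested, 8 of these had the sign of the row, and 2 hosts were called.

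Over all described rows 5 of 120 hosts tested were called (4.17%), against 6.68% of all rows. Leaving out high density library 1 or 2 gave 30 or 25 called hosts (25% and 20.8%, against 34.2% and 23.6% of all rows), and leaving out low density library 1 or 2 gave 1 each (0.833%, against 2.75% and 1.65%). Ltb, Trib2, Rb1 and 2900076A07Rik were higher and G3bp1 was lower. Rb1, the retinoblastoma gene that holds Mir687, had 95.9 and 114 TPM at high density, against 46.0 and 41.7 TPM at low density (limma adjusted p of 0.013). G3bp1, a stress granule gene that holds Mir7652, had 254 and 212 TPM at high density, against 469 and 423 TPM at low density (limma adjusted p of 0.032). The noncoding gene 2900076A07Rik, which holds Mir1839, had 36.0 and 76.2 TPM at high density, against 19.7 and 20.8 TPM at low density (limma adjusted p of 0.039).

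Of 37 genes that make, load or degrade microRNAs, 33 were tested and 3 were called (9.09%), 1 higher and 2 lower, against 6.68% of all rows. Their median log2 fold change was 0.02, against 0.12 over all rows tested. Tut4, which adds uridines to microRNA precursors, had 9.04 and 9.40 TPM at high density, against 3.00 and 2.54 TPM at low density (log2 fold change 1.44 ± 0.33 SE, limma adjusted p of 0.025).

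The 2 falls were chaperones that load Argonaute and serve many other proteins. Hspa8 had 747 and 282 TPM at high density, against 1973 and 1489 TPM at low density (log2 fold change -1.90 ± 0.37 SE, limma adjusted p of 0.012). Hsp90aa1 had 206 and 159.6 TPM at high density, against 385 and 319.9 TPM at low density (log2 fold change -0.95 ± 0.24 SE, limma adjusted p of 0.038). Ran, the GTPase of nuclear export, had 472 and 501 TPM at high density, against 785 and 895 TPM at low density, with a limma adjusted p of 0.055. None of these 3 calls held when each library was centred on its median, though centring moved their log2 fold changes only by -0.19, so both falls were larger in size. Leaving out high density library 1 or 2 gave 11 or 7 called genes of the list (33.3% and 21.2%, against 34.2% and 23.6% of all rows), and leaving out low density library 1 or 2 gave 1 each (3.03%, against 2.75% and 1.65%).

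The core enzymes were expressed in every library and none was called. Drosha had 51.3 and 71.5 TPM at high density, against 69.7 and 57.4 TPM at low density (log2 fold change -0.06 ± 0.26 SE). Dgcr8 had 24.97 and 37.4 TPM at high density, against 53.5 and 52.9 TPM at low density (log2 fold change -0.78 ± 0.28 SE, limma adjusted p of 0.11). Dicer1 had 24.8 and 31.3 TPM at high density, against 33.9 and 28.7 TPM at low density, and Ago2 58.7 and 69.8 TPM, against 50.01 and 39.4 TPM. Xpo5 had 77.2 and 99.4 TPM at high density, against 109 and 108 TPM at low density. These intervals are wide at 2 libraries a group, and a p above the threshold does not show equal levels.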

How the data were processed

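RNA of 4 BEKO libraries was isolated with a column micro kit and sent to a sequencing company, which built libraries that keep strand, per the labels' protocols. The authors deposited 1 table of TPM values, with a sum of 1000000 in every library. Per the submitters' processing notes, mm9 and DESeq2 1.2.10 are named, with no role given. The aligner, counter, annotation and depth were not given in the sources used here.

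High and low density were compared with limma 3.58.1 in R 4.3.3 on log2(TPM + 1), with a mean-variance trend, over the 10936 rows that averaged at least 1 TPM, two-sided, with Benjamini-Hochberg adjustment over all of them. Fold changes on this scale understate weak rows. The model has 2 residual degrees of freedom and gained 9.53 from moderation. An exact permutation test of 2 against 2 libraries cannot go below p = 0.333. On simulated data, changes were planted only in rows well above the filter. The fit called most of the larger ones where spread was typical of rows of like level. It called none where the rows' own spreads were shuffled over rows, so the simulation lends no support to single calls.

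Reads were recovered as TPM times RefSeq hairpin length, divided by its most frequent value in a library. Intervals are exact two-sided Poisson at 95%. The limit for a count of 0 was set apart from them at 3 reads, below the upper end of such an interval. Hosts were taken from GENCODE M21 (GRCm38), another build than that named for the files, so no coordinates are given. A host is a gene on the same strand that spans the hairpin. Transcript copies were searched with BLAST 2.17.0 at 90% coverage and 90% identity, on the sense strand of annotated transcripts, with microRNA genes left out.

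The members and lists were chosen with earlier results of these data known. Named are the 20 highest rows, all called rows, the 3 on either side of the threshold, listed microRNAs of at least 1 TPM, their hosts and the 4 processing genes of smallest p, with the core processing enzymes and some listed rows at 0 added after their values were seen. Read recovery, depth classes, interval comparison, location and copy search, and the sequences shown were also chosen after seeing the data. The labels link same-numbered libraries only by a number and do not say whether they were handled together. The 1 correlation of their deviations was 0.042, which does not settle it. Alternatives were other pseudocounts, filters and scalings, a replicate block and leaving out each library.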

Additional observations from a re-analysis of the deposited data

How the results depend on the processing

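Of the 16 called microRNA rows 0 reversed direction in the alternatives that could test them, 8 to 11 a row. Most of these alternatives could not have reversed a row. Filters and the replicate block leave its log2 fold change unchanged. In each of the 16 rows the groups did not overlap, so other pseudocounts or a library left out could not turn the sign. Only the scalings could have done so. The count of called microRNA rows was 15 and 11 with pseudocounts of 0.1 and 5 (8.88% and 6.51%, against 6.76% and 6.02% of all rows). With no filter 0 of 1148 were called, where 28 had an unadjusted p under 0.05, and 0 of all rows, 0 processing genes and 0 hosts were called. With a mean of at least 5 TPM, 10 of 55 microRNA rows were called (18.2%), against 876 of 9377 of all rows (9.34%). Centring on the median called 3 microRNA rows (1.78%), 314 of all rows (2.87%), 0 processing genes and 3 hosts. Quantile normalisation called 3 (1.78%), 360 (3.29%), 0 and 3. These scalings moved the median log2 change over all rows by -0.19 and -0.14. The replicate block, with 2 pairs that the labels link only by a number, called 41 microRNA rows (24.3%), against 8.57% of all rows. Mir5125 (limma adjusted p of 0.0018) and Mir210 (limma adjusted p of 0.0011) were among them. Leaving out 1 library gave 18 to 78 microRNA rows, 181 to 3734 of all rows, 1 to 11 processing genes and 1 to 30 hosts, with the lone library assumed to vary like the other group. The log2 fold change of Mir682 turned to 0.13 with quantile normalisation and ran from -0.431 to 0.30 with 1 library left out. That of Mir142b turned to -0.10 when centred and ran from -0.0495 to 0.218 with 1 library left out. The threshold on the mean gave 208 rows at 0.5 TPM and 116 at 2 TPM. The cause of these shifts was not tested. Depth limits most rows: 108 of 163 rest on fewer than 20 reads.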
